A study of Homo sapiens with 6 samples.

Results

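RNase P RNA and RNase MRP RNA were examined in small RNA sequencing of HEK293T, a human embryonic kidney cell line. The members were the windows whose class label was RNase_P_RNA (1 window, gene RPPH1) or RNase_MRP_RNA (2 windows, both at gene RMRP), so 3 of the 53603 windows counted. Cells were transfected with an siRNA at 150 nM, either a control or one directed at La (the product of SSB, which binds RNA), and were collected after 48 h. Each arm had 3 biological replicates, 6 libraries in all, and every library came from the same line with no further treatment. Terminal phosphates were removed and then added back before library construction, so RNA fragments with varied ends could be read. The cell line was not checked by marker genes, because the windows count small RNA at start sites.

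RPPH1 encodes the catalytic RNA of RNase P, which cuts the 5′ leader from tRNA precursors. RMRP encodes the RNA of RNase MRP, a related enzyme that takes part in ribosomal RNA maturation and shares most of its protein subunits with RNase P, and variants of RMRP cause cartilage-hair hypoplasia. Both genes are transcribed by RNA polymerase III from promoters that lie upstream of the transcribed part, like those of U6 and 7SK RNA. La binds the oligo(U) that ends new RNA polymerase III transcripts.

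The RNA sequences show which bases were counted, since each window covered 400 bp and only part of the RNA. The RPPH1 RNA (GRCh38 chr14:20343075-20343407, minus strand, 333 bases, 1 exon of a ribozyme gene in GENCODE release 29) is printed without its last 33 bases, and its bases 1 to 250, those inside the window, are in capitals. The RMRP RNA (GRCh38 chr9:35657754-35658017, minus strand, 264 bases, also a ribozyme gene) is printed with its bases 14 to 250, those inside both RMRP windows, in capitals.

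RPPH1 RNA: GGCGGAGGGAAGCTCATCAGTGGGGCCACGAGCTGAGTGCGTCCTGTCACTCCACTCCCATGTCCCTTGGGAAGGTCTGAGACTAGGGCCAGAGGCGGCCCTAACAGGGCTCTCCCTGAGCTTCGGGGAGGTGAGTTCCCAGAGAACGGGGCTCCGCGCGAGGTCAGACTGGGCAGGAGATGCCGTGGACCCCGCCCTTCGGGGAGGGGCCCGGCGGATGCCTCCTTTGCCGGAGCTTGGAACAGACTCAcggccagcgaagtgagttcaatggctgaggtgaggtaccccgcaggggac

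RMRP RNA: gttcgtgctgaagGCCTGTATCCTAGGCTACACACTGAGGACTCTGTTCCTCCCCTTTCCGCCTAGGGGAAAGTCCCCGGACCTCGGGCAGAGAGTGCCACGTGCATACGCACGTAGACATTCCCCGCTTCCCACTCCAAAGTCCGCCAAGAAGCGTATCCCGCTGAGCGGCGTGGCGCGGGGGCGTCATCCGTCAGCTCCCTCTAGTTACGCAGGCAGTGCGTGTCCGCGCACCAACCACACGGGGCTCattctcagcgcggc

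The RPPH1 window (RNase_P_RNA_51239, chr14:20343158-20343557) held 150 bases upstream of the RPPH1 RNA and left out the last 83 bases of the RNA. One RMRP window (RNase_MRP_RNA_51293, chr9:35657768-35658167) had the same layout and is called the start-site window: it held 150 upstream bases and left out the last 14 bases of the RMRP RNA. The other (RNase_MRP_RNA_52422, chr9:35657605-35658004) is called the end window: it left out the first 13 bases and held the end of the RNA with 149 bases beyond it. The longest run of T was 3 bases in either RNA (bases 226 to 228 of the RPPH1 RNA, and the first such run at bases 56 to 58 of the RMRP RNA), so no run of 4 or more T lay within the annotated RNAs. Bases beyond the ends of the RNAs were not used here.

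The upstream stretches were taken from the RefSeq promoter table (GRCh38.p14) of the neighbouring genes on the opposite strand, PARP2 and CCDC107, and are printed in the direction of RPPH1 and RMRP because both genes have their promoter elements there. For RPPH1 the stretch runs from -174 to -1 relative to the start of the RNA (chr14:20343408-20343581, minus strand), and for RMRP from -272 to -25 (chr9:35658042-35658289, minus strand). Capitals mark matches, on either strand, to 3 motifs: the TATA box (searched as TATAA), the core of the proximal sequence element or PSE (ACCNTNA), and the octamer (ATTTGCAT).

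RPPH1 upstream: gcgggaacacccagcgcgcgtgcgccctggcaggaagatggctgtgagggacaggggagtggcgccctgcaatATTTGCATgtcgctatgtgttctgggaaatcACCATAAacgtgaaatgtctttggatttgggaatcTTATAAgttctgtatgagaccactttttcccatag

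RMRP upstream: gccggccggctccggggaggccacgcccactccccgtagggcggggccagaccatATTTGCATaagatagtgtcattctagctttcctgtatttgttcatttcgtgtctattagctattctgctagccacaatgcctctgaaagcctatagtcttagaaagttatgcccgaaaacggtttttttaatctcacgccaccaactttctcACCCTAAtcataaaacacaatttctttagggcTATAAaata

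Both stretches held all 3 motifs, in the order octamer, PSE core, TATA box. The TATA match lay at -34 to -30 in RPPH1 and at -33 to -29 in RMRP, and the PSE core match at -70 to -64 and at -65 to -59. The octamer match lay at -101 to -94 in RPPH1 and, farther out, at -217 to -210 in RMRP, outside the RMRP window. RPPH1 also had a TATA match on the opposite strand at -35 to -31, which overlaps the other. Of 35116 promoter sequences of 300 bases in that table, 20.4% held the TATA motif, 27.1% the PSE core and 1.77% the octamer on either strand. The RNA of RPPH1 starts 175 bp from the nearest annotated start of PARP2, which encodes a poly(ADP-ribose) polymerase, and that of RMRP 273 bp from CCDC107. In the counts used here 0 windows of other genes overlapped the RPPH1 or RMRP windows, and the nearest other window lay 9704 bp away at RPPH1 and 6776 bp from the start-site window at RMRP.

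**Figure D1:**
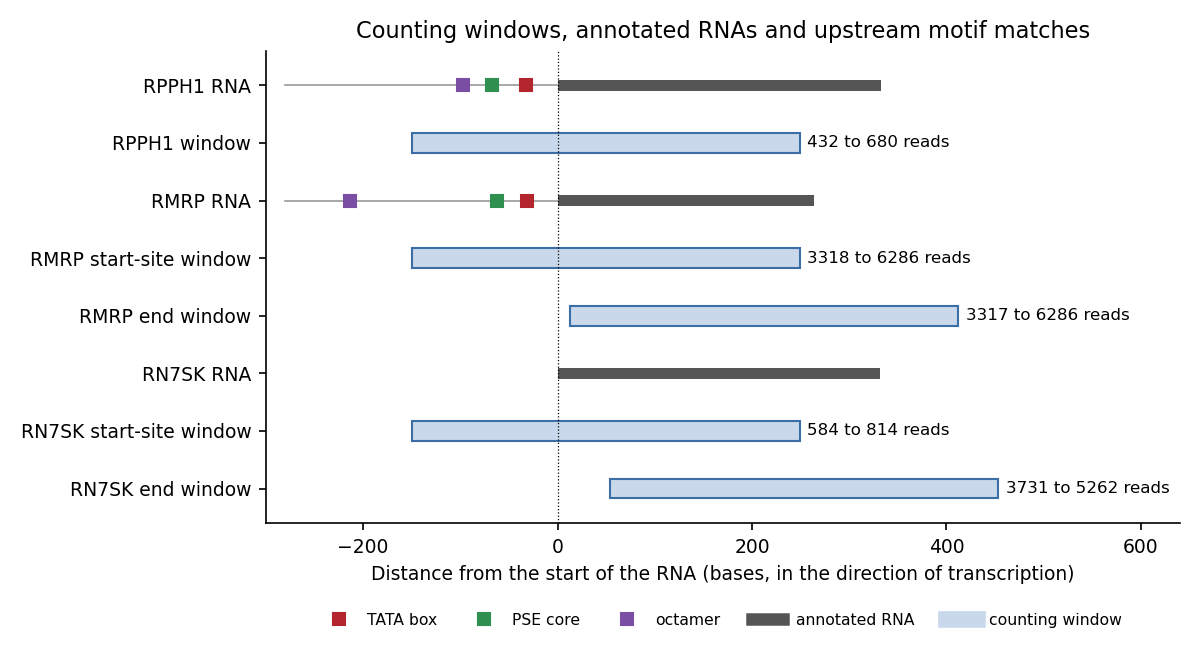
Counting windows (pale bars) and annotated RNAs (dark bars) of RPPH1, RMRP and RN7SK, by distance in bases from the start of the RNA, with motif matches as squares and the lowest and highest read count of the 6 libraries beside each window. The RMRP windows have the same counts within 1 read although they are offset by 163 bp, while the RN7SK windows, offset by 204 bp, differ several-fold.

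Total counts over all windows ranged from 3066299 to 4105806 per library. The targeted gene had few reads: the SSB window PCG_40419 went from 4, 3 and 3 counts in control replicates 1 to 3 to 1, 0 and 0 after La siRNA, and a second, PCG_12982, had 1 count in total in the control libraries and 2 in the La siRNA libraries. These windows count promoter small RNA and not SSB mRNA, and how far La itself was reduced cannot be read from them. Libraries were scaled with TMM factors, and values in CPM, read counts relative to library size, are TMM-scaled unless another scaling is named. Of all windows, 1064 passed the filter on low counts, all 3 RNase P and RNase MRP windows among them. The edgeR quasi-likelihood test called 58 of those 1064 windows (5.45%) at a Benjamini-Hochberg adjusted p under 0.05, 7 higher (0.658%) and 51 lower (4.79%) in the La siRNA arm.

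RPPH1 was not called changed by La siRNA. Its window had 478, 432 and 580 control reads (replicates 1 to 3) and 475, 680 and 553 reads after La siRNA (replicates 1 to 3), so the arms overlapped in raw reads. As CPM these were 125, 128 and 150 for control and 170.3, 200.3 and 174 for La siRNA. On this scale every La siRNA library lay above every control library, which was also so for 14.1% of the tested windows. Scaled by library size alone the arms overlapped again, with 166 CPM in control replicate 3 and 155 CPM in La siRNA replicate 1. The mean went from 134 ± 14.0 to 182 ± 16.3 CPM (SD, n = 3 each), a log2 fold change of 0.44 (SE 0.23, 95% interval -0.07 to 0.94, edgeR adjusted p = 0.247).

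RMRP was not called either. The start-site window had 3390, 3350 and 4218 control reads and 3776, 6286 and 3318 reads after La siRNA. These were 885, 990.5 and 1093 CPM for control and 1354, 1852 and 1045 CPM for La siRNA. La siRNA replicate 2 was the highest of the 6, and La siRNA replicate 3 lay below control replicate 3, so the arms overlapped. The mean went from 989.5 ± 104 to 1417 ± 407 CPM (SD, n = 3 each), a log2 fold change of 0.52 (SE 0.26, 95% interval -0.05 to 1.09, edgeR adjusted p = 0.234). Without La siRNA replicate 2, in log2 fold change, RMRP had 0.26 (edgeR adjusted p = 0.575), and RPPH1 had 0.34 (edgeR adjusted p = 0.479).

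**Figure D2:**
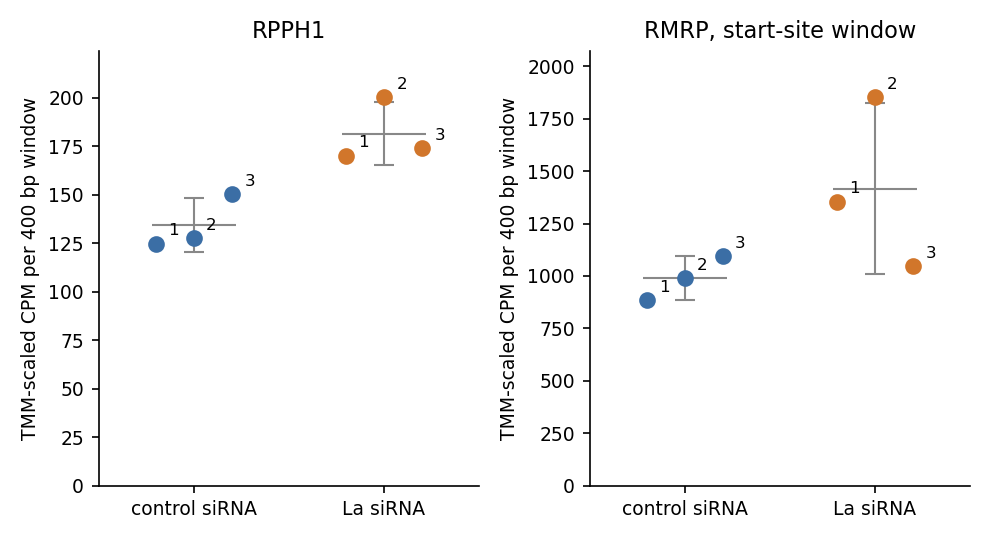
TMM-scaled CPM of the RPPH1 window and the RMRP start-site window (y axes from 0) in each library, numbered by replicate, with the mean and SD of each arm as grey bars. RPPH1 lies between 125 and 150 CPM in control and between 170.3 and 200.3 CPM in La siRNA libraries, whereas the RMRP values of the arms overlap.

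None of the 3 windows passed the adjusted threshold with edgeR, beside 5.45% of all tested windows. At an unadjusted p under 0.05 edgeR with TMM factors gave 0 of the 3 windows, beside 23.9% of all tested windows. DESeq2 gave 0 of 3 at an adjusted p under 0.05 (9.3% of all windows) and, at an unadjusted p under 0.05, 1 of the 3, RPPH1 (unadjusted p = 0.0441, DESeq2 adjusted p = 0.179), beside 25.7% of all tested windows. With the filter on low counts, the fitted changes were among the higher ones without being called. RPPH1 stood above 77.2% and RMRP above 80.6% of the tested windows, whose median log2 fold change was -0.05. Upper quartile factors, which moved that median by 0.32, gave the largest fitted values of the 5 scalings, 0.75 for RPPH1 and 0.83 for RMRP. Their edgeR adjusted p was 0.0584 and 0.0608, and neither was among the 8.83% of windows called with these factors. Their unadjusted edgeR p was 0.00817 and 0.00895. Windows with an unadjusted p under 0.05 were then 308 higher and 83 lower, of 1064 tested. Without a filter on low counts the values were 0.18 and 0.25. RPPH1 and RMRP then stood above 52.1% and 52.6% of the 21830 windows tested, which needed only 1 read over all libraries. In the authors' deposited table, RPPH1 had a log2 fold change of 0.16 and the RMRP start-site window one of 0.22, each with an adjusted p of 1, in a table that called 0.153% of its 53603 windows. Over the 1064 windows tested here the median of the deposited log2 fold changes was -0.32, beside -0.05 with TMM factors. Among these windows the deposited values placed RPPH1 at 77.6% and the RMRP start-site window at 80.4%, ranked from the lowest.

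**Figure D3:**
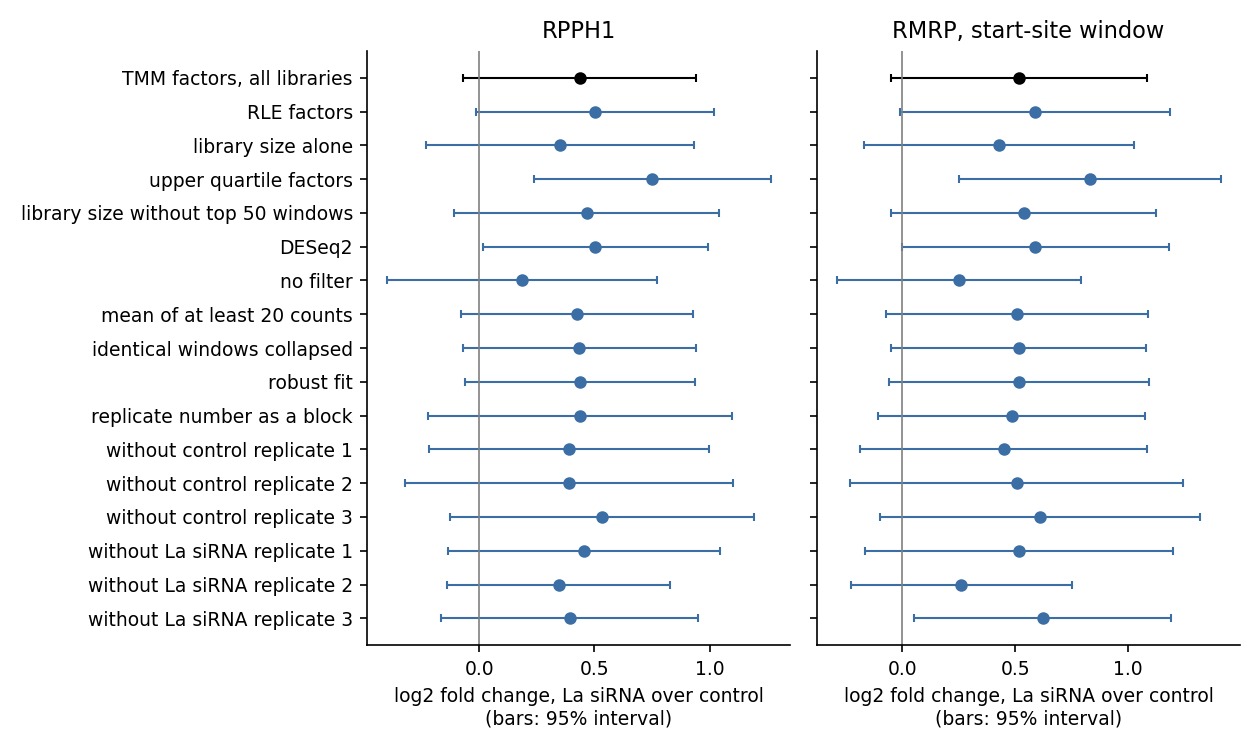
Log2 fold change (La siRNA over control) of RPPH1 and of the RMRP start-site window with its 95% interval under each setting and with each library left out. Every point lies above 0, from 0.18 to 0.75 for RPPH1 and from 0.25 to 0.83 for RMRP, and most intervals cross 0.

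The RMRP windows gave the same count in 5 of 6 libraries, and in La siRNA replicate 3 the end window had 1 read fewer. Their 237 shared bases (chr9:35657768-35658004) are the capitals of the RMRP RNA printed above. Each window has 163 bases of its own: the start-site window the upstream bases and the first bases of the RNA, the end window the last bases of the RNA and what follows it. The rule for counting reads that lie across a window edge was not given in the sources used here, so equal counts show that the net difference between those outer stretches was at most 1 read. These windows are therefore 1 measurement of RMRP and not 2. Fitted separately, the end window also gave 0.52 (edgeR adjusted p = 0.234).

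The gene of 7SK RNA, a regulator of transcription elongation, was also counted in 2 windows and differed from RMRP in this layout. Its start-site window (7SK_51285) held bases 1 to 250 of 332, and its end window (7SK_53366) bases 55 to 332. The end window had 4.58, 6.74 and 7.95 times the reads of the start-site window across the control libraries and 7.76, 8.62 and 5.58 times after La siRNA. Every library thus had several times more 7SK reads in the window that holds the end of the RNA, where RMRP had equal counts. Dispersed 7SK copies can share reads with RN7SK, and reads that lie wholly in the last 83 bases of the RPPH1 RNA are not in its count.

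The start-site windows of RMRP and RPPH1 each hold bases 1 to 250 of their RNA. They leave out the last 14 bases of the RMRP RNA but the last 83 bases of the RPPH1 RNA. Their counts are therefore set side by side for these windows and not for the whole RNAs. RMRP had 7.09, 7.75 and 7.27 times the reads of RPPH1 across the control libraries and 7.95, 9.24 and 6.0 times across the La siRNA libraries. The ratio was thus near 7 in the control libraries (7.37 ± 0.343, SD, n = 3) and more spread in the La siRNA libraries (7.73 ± 1.63, SD, n = 3), which held both the lowest and the highest value. The log2 ratio differed by 0.05 between the arms (two-sided exact permutation test, p = 0.8, adjusted 0.8 over 7 ratios), so no difference between the responses of RMRP and RPPH1 was detected. Without La siRNA replicate 3 it differed by 0.22 with no overlap between the arms (exact permutation p = 0.2), and without La siRNA replicate 2 by -0.093.

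Levels were also placed among RNA polymerase III genes as CPM per kb of annotated RNA in the window, over 17 windows in the control libraries. RMRP was the eighth, at 3927 ± 414 CPM per kb (SD, n = 3), next below the RN7SK end window at 4406 ± 783, from which its range was not separate. RPPH1 was the eleventh, at 529 ± 55.0 CPM per kb (SD, n = 3). Its range overlapped that of RNU6-9, a gene of the spliceosomal U6 RNA, at 464 ± 85.8 and lay below that of the RN7SK start-site window at 777 ± 83.1. U6 was counted in 97 windows, and the treatment of reads with several positions was not given. The value of the RNU6-9 window is therefore not the level of U6 RNA. The Y RNA genes RNY4, RNY5 and RNY1 and the vault RNA gene VTRNA1-2 were the highest 4. These are levels of sequenced small RNA and not of the full-length RNAs.

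**Figure D4:**
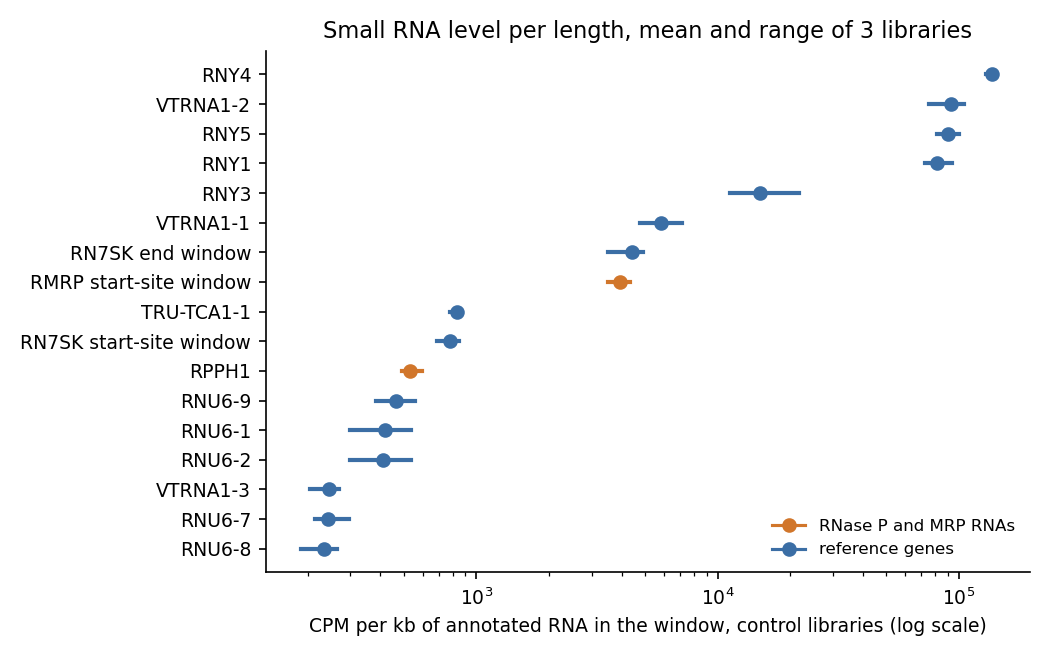
CPM per kb of annotated RNA in each window (log axis), as the mean (point) and range (line) of the 3 control libraries, with RPPH1 and RMRP in orange. RMRP (3927) lies beside the RN7SK end window (4406), and RPPH1 (529) lies between the RN7SK start-site window (777) and RNU6-9 (464).

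Shares of all counts need no scaling factor. The denominator is the sum of counts over all windows. Overlapping windows, such as the 2 at RMRP, can count a read more than once. RPPH1 took 0.0138% ± 0.00255 of control counts and 0.0176% ± 0.00222 of La siRNA counts (SD, n = 3 each, two-sided exact permutation p = 0.2). RMRP took 0.102% ± 0.0192 and 0.137% ± 0.0415 (SD, n = 3 each, two-sided exact permutation p = 0.2). Adjusted over these 2 shares the exact permutation p was again 0.2, and 3 against 3 libraries cannot go below 0.1. The rRNA windows, which took 39.4% of control and 47.3% of La siRNA counts, enter that denominator, and their part in the share differences was not tested. Without the rRNA windows in the denominator RPPH1 took 0.0232% and 0.0341% (exact permutation p = 0.3) and RMRP 0.171% and 0.271% (exact permutation p = 0.2). Without the 50 windows with the most counts RPPH1 took 0.0274% and 0.0378%, with an exact permutation p of 0.1, the smallest the design allows. RMRP then took 0.202% and 0.293% (exact permutation p = 0.2). The p-values under these other denominators are unadjusted.

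Vault RNAs, small cytoplasmic RNA polymerase III transcripts, were taken as a contrasting reference with their lower counts after La siRNA already known. The vault RNA windows together had 97006 reads in the control libraries and 17912 in the La siRNA libraries, and 92.9% of the reads were in the VTRNA1-2 window. The fitted log2 fold change was -2.20 for VTRNA1-2 (edgeR adjusted p = 0.00565) and -1.86 for VTRNA1-1 (edgeR adjusted p = 0.0103). VTRNA1-3, with 0.286% of the vault RNA reads, had -1.11 and was not called (edgeR adjusted p = 0.135). Within each library, the log2 ratio to the vault RNA sum was higher after La siRNA by 2.68 for RMRP and by 2.63 for RPPH1. Since this reference was chosen for being lower in the La siRNA arm, these ratios mostly restate the vault RNA difference. They are given as a description and show no change of RMRP or RPPH1. Each had an exact permutation p of 0.1, the smallest the design allows, which is not read as evidence for either gene. Both p-values entered the adjustment over all ratios. For the RN7SK and U6 ratios the smallest adjusted p is therefore given below with and without them.

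Relative to RN7SK and to the sum of the 97 U6 windows, the arms overlapped for RMRP and RPPH1 when all 6 libraries were used. The log2 ratio of RMRP to the RN7SK start-site window was higher by 0.34 in the La siRNA arm (exact permutation p = 0.6) and that of RPPH1 by 0.30 (p = 0.4 in the same exact test). To the U6 sum the differences were 0.56 for RMRP and 0.51 for RPPH1 (exact permutation p = 0.2 and 0.3). After adjustment the smallest of these p-values was 0.467 over the 7 ratios and 0.667 over the 5 without the vault RNAs (exact permutation tests). Single libraries moved these values. Without control replicate 3 the arms no longer overlapped for RMRP to U6 (0.81), RPPH1 to U6 (0.77) and RPPH1 to RN7SK (0.47), and without La siRNA replicate 3 for RMRP to U6 (0.78). Each of those had an exact permutation p of 0.2, the smallest that 2 against 3 libraries allow. In the other direction, the ratio of RPPH1 to RN7SK was 0.07 without La siRNA replicate 2, and without control replicate 1 the U6 ratios were 0.31 for RMRP and 0.29 for RPPH1.

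**Figure D5:**
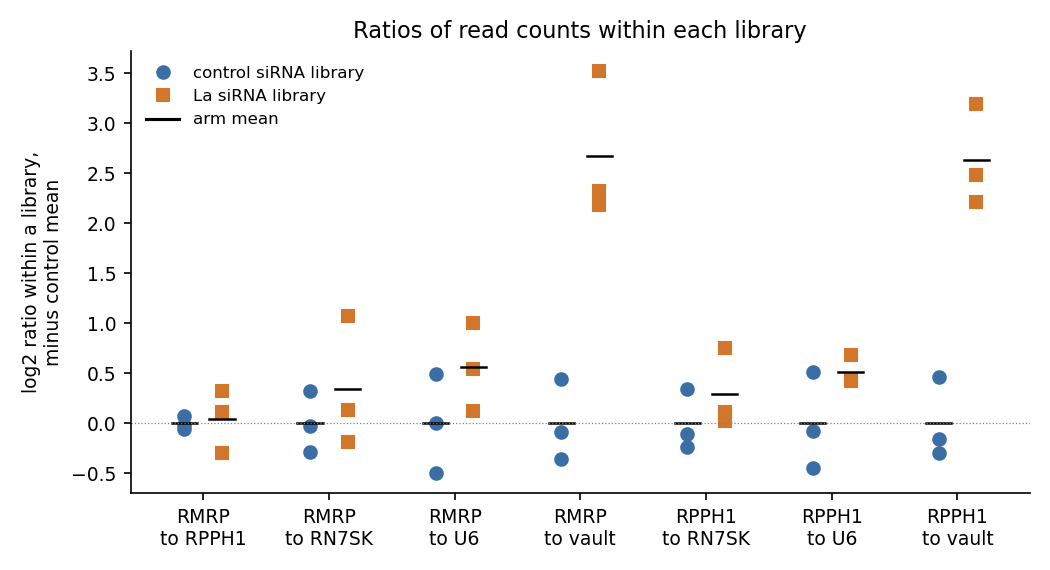
Log2 ratio of read counts within each library, minus the control mean, for RMRP against RPPH1 and for both genes against RN7SK, U6 and the vault RNAs (circles, control; squares, La siRNA; lines, arm means). The arms are apart for the vault RNA ratios, by 2.68 and 2.63, whose reference was chosen for its lower counts after La siRNA, and overlap for the other 5.

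The 12 other genes with upstream promoters of the RNA polymerase III type were mostly near the median of all windows. They had 13 windows, of which 12 were tested, with 0 higher and 0 lower (edgeR, adjusted p under 0.05), and 0 at an unadjusted p under 0.05, beside 23.9% of all tested windows. DESeq2 also called 0 of the 12 (9.3% of all windows), with 0 at an unadjusted p under 0.05 (25.7% of all windows). The fitted changes lay between -0.49 (RNY3) and 0.34 (RN7SK, end window) on the log2 scale, with a median of 0.02 beside -0.05 for all tested windows. RMRP (0.52) and RPPH1 (0.44) lay above that range. TRU-TCA1-1, the selenocysteine tRNA gene, had a log2 fold change of 0.02, and the U6 genes ran from -0.35 (RNU6-1) to 0.10 (RNU6-8). RNU6ATAC, of the minor spliceosome, had from 2 to 5 reads per library and was not tested.

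Promoters of the protein partners gave almost no small RNA. Of 11 genes for protein subunits of RNase P and RNase MRP, 10 had a window, 12 windows in all, and together these had 14 reads in the control libraries and 10 in the La siRNA libraries. The most reads were at POP7, with 0, 2 and 3 reads across the control and 0, 5 and 1 across the La siRNA libraries. Both POP1 windows, both RPP40 windows and the RPP14 window had none in any library. Of 7 genes that process other tRNA ends, form the protein-only RNase P of mitochondria or encode La itself (PRORP, TRMT10C, HSD17B10, ELAC1, ELAC2, TRNT1 and SSB), 14 windows had 34 and 14 reads. None of these 26 windows passed the filter on low counts. With no filter, 7 subunit windows and 12 of the other list had a fit, and edgeR called 0 of them at an adjusted p under 0.05, beside 0.495% of the 21830 windows then tested. At an unadjusted p under 0.05 there were 0 subunit windows and 1 of the other list, beside 2.95% of all. That window was SSB PCG_40419, whose 4, 3 and 3 control reads and 1, 0 and 0 La siRNA reads gave an unadjusted p of 0.0368 (edgeR adjusted p = 0.581).

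Across the 6 libraries, RPPH1 and RMRP had a Pearson r of 0.86 in log2 CPM, and 99 of 1061 other tested windows had a higher r with RPPH1. The 3 windows most like RMRP were all 28S rRNA or nearby rRNA repeat windows on chromosome 21: rRNA_53088 (r = 0.995), rRNA_53061 (r = 0.994) and rRNA_53072 (r = 0.993). These 3 windows had nearly the same counts as each other in each library, so they are not 3 separate matches. The first of these, which holds RNA28SN1, had 16059, 16127 and 19531 control reads and 19414, 37099 and 16484 La siRNA reads. As with RMRP, La siRNA replicate 2 was the highest library. Without that library r with RMRP was from 0.982 to 0.987 for the 3 rRNA windows and 0.75 for RPPH1. The 3 windows most like RPPH1 were SRP_RNA_52848 at RN7SL143P (r = 0.991), U1_52725 at RNU1-21P (r = 0.986) and lncRNA_754 on chromosome 11 (r = 0.978), each with fewer than 80 reads in a library. These values describe likeness over 6 libraries that share depth and scaling, with the closest of 1061 windows picked for each gene, and carry no test.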

How the data were processed

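Small RNA from 3 control siRNA and 3 La siRNA libraries was counted by the authors in 400 bp windows. Per the file headers the deposited values are raw read counts, and the deposited comparison table gives each window a p-value, an adjusted p-value, a log2 fold change, a mean level in log2 CPM and an F score. Per the submitters' processing notes, Trim Galore, Bowtie2, bedtools and edgeR were used with GRCh38; versions, strand use and treatment of reads with several positions were not given in the sources used here. Strand was therefore not separated.

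Counts were fitted with edgeR 4.0.16 in R 4.3.3 (filterByExpr, TMM factors, glmQLFit, arm as the single term, all 6 libraries), with Benjamini-Hochberg adjustment over all 1064 tested windows and a threshold of 0.05. Intervals are 95% from the fitted SE. Ratios within a library used raw counts plus 0.5 and, like shares, two-sided exact permutation tests in scipy 1.17.1. Alternatives were other scalings, DESeq2 1.42.0, other filters, collapsed identical windows, a robust fit, a replicate block, a pseudocount of 5, other denominators and each library left out. Protein-coding windows were named by a GENCODE release 29 start within 50 bp. Named windows were the members, windows overlapping them, the listed genes, vault RNAs and the 3 windows closest in pattern to each gene. On simulated data with the same dispersion for every window, 99.5% of 200 windows changed by 2 on the log2 scale were recovered among 1034 windows. Of the unchanged windows 0.959% were called. Changes as small as those fitted for RPPH1 and RMRP were not simulated, so the power to call them is not known. Members and lists were chosen with earlier results of these data known. Replicates differed by more than sampling noise.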

Additional observations from a re-analysis of the deposited data

How the results depend on the processing

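The fitted changes of RPPH1 and both RMRP windows kept their direction and stayed short of the adjusted threshold in all 48 alternatives run (16 for each window). Leaving out 1 library gave log2 fold changes from 0.34 to 0.53 for RPPH1 and from 0.26 to 0.62 for RMRP. The shares kept their direction in all 16 alternatives. Of 51 alternatives for the 7 ratios, 2 reversed, both without La siRNA replicate 2: RMRP to RPPH1 became -0.093 and RMRP to RN7SK -0.024. Over the fits without 1 library these ratios ran from -0.093 to 0.22 and from -0.024 to 0.61. The other RN7SK and U6 ratios ran from 0.07 to 0.47 for RPPH1 to RN7SK, from 0.31 to 0.81 for RMRP to U6 and from 0.29 to 0.77 for RPPH1 to U6. The RN7SK end window in place of the start-site window, chosen after seeing the data, gave 0.14 for RMRP and 0.09 for RPPH1. Windows called higher over the whole table, 7 in all libraries, became 58 with upper quartile factors, 23 with DESeq2, 4 with no filter and 4 with a mean of at least 20 counts. Windows called lower, 51 in all libraries, became 104 with no filter. With upper quartile factors 36 were lower and with DESeq2 76. Leaving out 1 library gave from 0 to 21 higher and from 0 to 98 lower windows, the lowest without La siRNA replicate 1 and the highest without La siRNA replicate 3. A replicate block gave 20 higher and 88 lower windows, which include all 58 called without it, and a log2 fold change of 0.44 for RPPH1 and 0.49 for RMRP (edgeR adjusted p = 0.409 and 0.308). Same-numbered libraries had correlations of their deviations of 0.14, 0.23 and -0.46. These 3 values cannot tell whether the replicate numbers pair the libraries, and the labels do not say. What moved the numbers of called windows between settings was not tested. In the lists of protein subunits, of tRNA end processing genes and of upstream-promoter genes, no window was called with no filter or with upper quartile factors.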
